A study of Mus musculus with 41 samples.

Results

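The genes described here encode the enzymes and regulators of cholesterol and fatty acid synthesis, and were followed across mouse mammary tumors that arose under different fat diets. There were 36 of them among the 20913 genes tested. The choice was made by name from the gene names of the array, by no measured value but with earlier results of these data known. They comprised 7 enzymes from acetyl-CoA to farnesyl diphosphate, 11 enzymes from squalene to cholesterol, the sterol transport protein Stard4, 4 regulators, and 13 genes of fatty acid synthesis. Where a gene had several probes, the probe of highest mean signal was taken.

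Mammary duct fragments lacking Trp53 were transplanted into the cleared fat pads of wild-type female BALB/c mice, so each tumor carried Trp53-null epithelium in a wild-type host, with the surrounding stroma and fat of that host. The mice ate a low fat diet (LFD) or a high fat diet (HFD) throughout, or were switched after puberty from high to low fat (HFD-LFD) or from low to high fat (LFD-HFD). Of 41 tumors, 29 were labelled with a variable morphology, read here as the epithelial tumors of the study (8 LFD, 8 HFD, 7 HFD-LFD and 6 LFD-HFD tumors), and 12 were labelled spindle-like, 3 from each regimen. Each tumor was also labelled early or late by its occurrence, with 14 early and 15 late epithelial tumors and 3 early and 9 late spindle cell tumors. The fragments came from 4 donor mice whose identity is not labelled by tumor, and 3 of the 38 different numbers in the tumor titles were shared by more than 1 tumor. Tumors are named by these titles, and the figures leave out the leading MSU. The p-values therefore measure the spread between tumors, and cannot be tied to separate donors.

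Each tumor RNA was hybridised once with a reference RNA pooled from 11 mouse cell lines, and each value below is a log2 ratio of tumor over reference signal, so that 1 unit is a doubling. The sample labels put the tumor in Cy5, whereas the study's methods put the reference there, so the direction used here opposes the methods. The Y-linked genes Ddx3y and Eif2s3y, which tissue of female mice lacks, were lower in Cy5 on all 41 arrays, with ratios from -8.65 to -2.59 in epithelial tumors for Eif2s3y, and Cy5 was read as the tumor. No array had its dyes swapped, so a ratio against the reference includes any dye bias of its probe, which all tumors share. Of 43020 spots per array, 52.4 to 94.9% were well above background in the tumor channel of epithelial tumors and 59.1 to 72.7% in spindle cell tumors. Every spindle cell tumor was scanned in a session apart from the epithelial tumors, so histology and session cannot be told apart. Epithelial tumors MSU_42L4B and MSU_60L, both HFD, were scanned in another session of their own, and MSU_60L had the most spots set aside as outliers. Among epithelial tumors, 7 of 8 slides held tumors of 1 regimen, so slide and regimen can hardly be told apart, and 21 member values, most of them of tumor MSU_60L, were missing. In bulk tumor RNA, fewer cells of a type and less RNA per cell cannot be told apart.

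In most cells these genes answer to the sterol regulatory element binding proteins. Srebf1 encodes the form best known for driving fatty acid synthesis, and Srebf2 the form best known for driving cholesterol synthesis. Scap escorts both precursors from the endoplasmic reticulum to be cleaved, and Insig1 retains Scap there when sterols are plentiful and is itself a target of the pathway. In mammary gland, fatty acid synthesis rises with lactation to supply milk fat, and adipocytes of the fat pad also make fatty acids from sugar, so both epithelium and fat can contribute these transcripts to a tumor sample.

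Short stretches of promoter are shown for the genes on which the results below turn, with the matched motif in capitals. They were read from RefSeq windows of 250 bases before to 50 bases after each start (build GRCm38.p6), which were found for 29 of the 36 genes. Of the motifs searched on both strands, the full sterol regulatory element was found in 0 of 29 genes and in 0.0999% of all 27025 genes with a window. Its looser form TCACNCCAC, any base allowed at N, was found in Hmgcs1 alone, or 3.45% of members against 1.44% of all genes. CCAAT, the binding site of NF-Y, a cofactor of these regulators, was found in 24 members (82.8% against 41.1% of all genes and 42.3% of coding genes), GGGCGG, an Sp1 site, in 23 (79.3% against 38.2% and 49.2%), and the E-box CACGTG in 6 (20.7% against 8.09%). CCAAT read from the other strand appears as ATTGG. A match is a string of letters and shows no binding.
Hmgcs1 (chr13:119690204-119690233, + strand): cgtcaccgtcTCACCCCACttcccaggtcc
Insig1 (chr5:28071184-28071213, + strand): cgccctcctcccATTGGctccggcggcctc
Cyp51 (chr5:4104709-4104738, - strand): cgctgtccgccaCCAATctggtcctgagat
Fasn (chr11:120824589-120824618, - strand): cctcggtgtccaATTGGtttcgatgtggag
Mvd (chr8:122443432-122443461, - strand): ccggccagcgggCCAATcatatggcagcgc
Gpam (chr19:55127295-55127324, - strand): ctgaagctttcgATTGGctgatcaagctca

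All 36 genes passed the filter on low signal, and all but Gpam were well above background in the tumor channel of all 41 tumors. In epithelial tumors, 4 members lay below the reference in every tumor measured, against 11.2% of all genes, and 2 lay above it, against 15.9%. The 4 were Hmgcs1, which makes the committed precursor of mevalonate (mean ratio -1.41 ± 0.61 SD, n = 28), the sterol reductase Tm7sf2 (-1.79 ± 0.46, n = 28), Insig1 (-1.62 ± 0.79, n = 28) and Acacb, the mitochondrial acetyl-CoA carboxylase (-2.46 ± 0.83, n = 28). The 2 were Sqle, the squalene epoxidase that adds oxygen to squalene (0.74 ± 0.68, n = 27), and Srebf2 (0.87 ± 0.56, n = 29). With each array centred on its median, 7 were below (Hmgcs1, Fdft1, Tm7sf2, Insig1, Acacb, Elovl6 and Gpam) and only Srebf2 above. Along the pathway, the mean ratio of epithelial tumors was below the reference for 6 of the 7 enzymes up to farnesyl diphosphate, Idi1 (0.44 ± 0.51) being above it. From squalene on, 5 of 11 were below, namely Fdft1, Lss, Tm7sf2, Sc4mol and Hsd17b7, and 6 above, with Ebp (0.69 ± 0.33), Sc5d (0.61 ± 0.67) and Dhcr7 (0.46 ± 0.79) among the highest after Sqle. In the fatty acid arm 8 of 13 were above, led by Me1, the malic enzyme that supplies NADPH (1.33 ± 0.66), and Acly, which makes acetyl-CoA from citrate (0.64 ± 0.52), and Acss2, Acacb, Scd2, Elovl6 and Gpam were below.

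In spindle cell tumors 7 members lay below in every tumor, against 15.6% of all genes, namely Acat2, Hmgcs1, Mvk, Fdft1, Tm7sf2, Stard4 and Acss2, and Srebf1 and Me1 lay above, against 22.7%; centring left these names as they were.

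**Figure D1:**
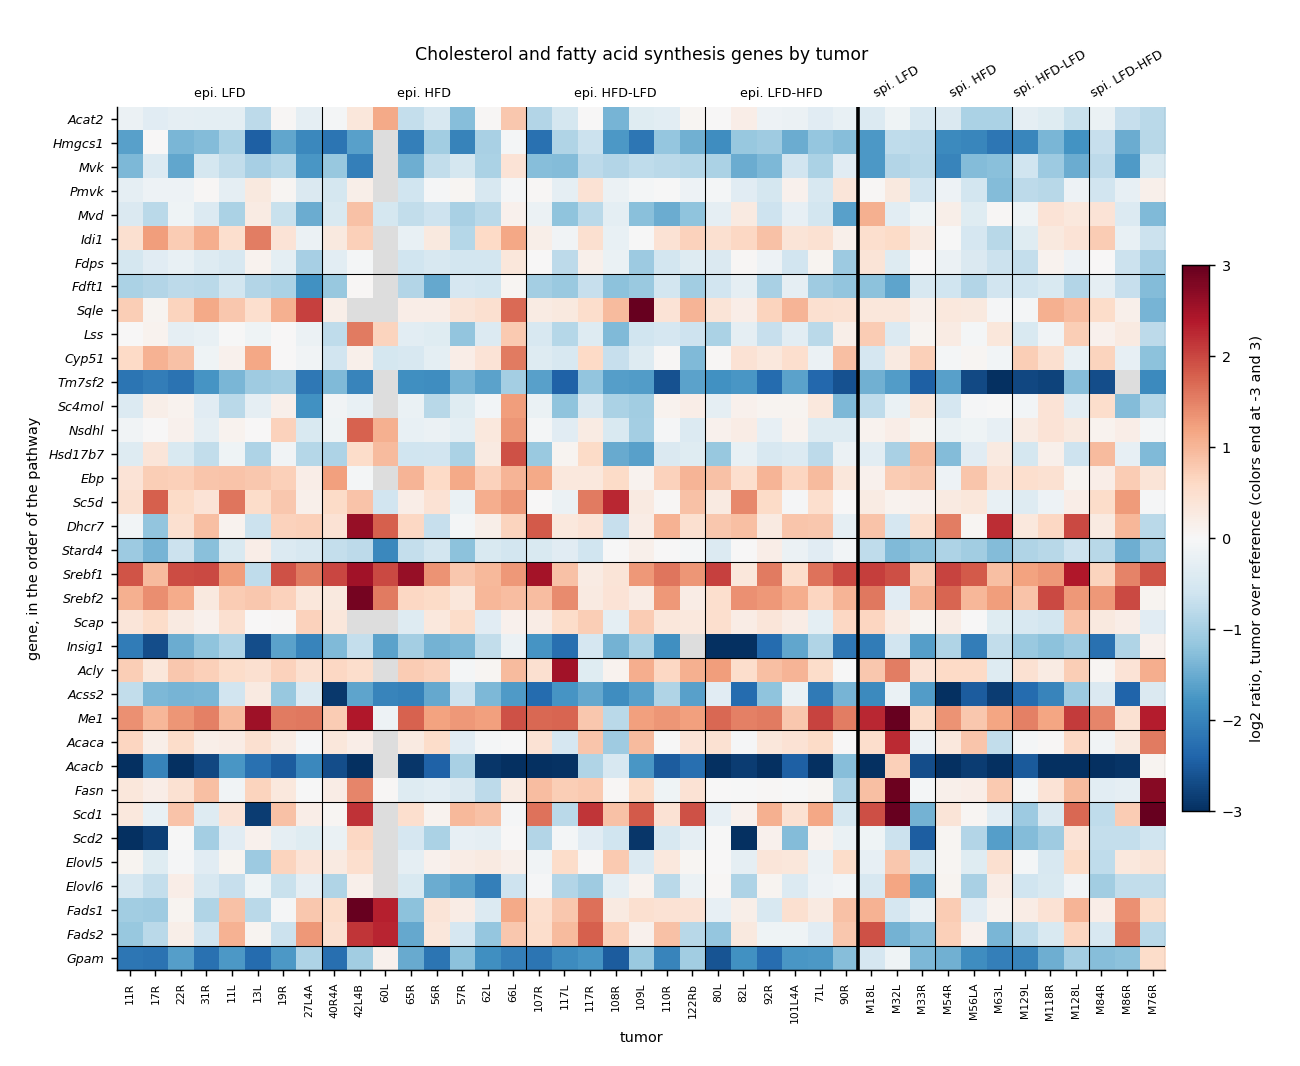
Log2 ratio of tumor over reference for the 36 genes (rows, in pathway order) in each of the 41 tumors (columns, grouped by histology and regimen; "epi." is epithelial and "spi." spindle cell), with the color scale ending at -3 and 3 and missing values in grey. Tm7sf2, Insig1 and Acacb are below the reference in all epithelial tumors measured, Srebf2 is above it in all 29, and the fatty acid genes of spindle cell tumors MSU_M32L and MSU_M76R stand out from their neighbors.

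The regulators differed in how far they varied. Srebf1 had a mean ratio of 1.40 ± 0.77 (SD, n = 29) in epithelial and 1.53 ± 0.58 (n = 12) in spindle cell tumors, and tumor MSU_13L, at -0.76, was the 1 epithelial tumor below the reference. Scap stayed near the reference, from -0.39 to 0.75 in epithelial tumors. Insig1 spanned -3.50 to -0.18 in epithelial tumors. Over all members, the median SD between epithelial tumors was 0.58 against 0.56 for all genes. The SD ranged from 0.28 for Pmvk, the phosphomevalonate kinase, to 1.16 for Scd2, a stearoyl-CoA desaturase, which exceeded 92.2% of genes. Scd2 was low in a few tumors of several regimens, at -3.84 in MSU_11R (LFD), -3.76 in MSU_82L (LFD-HFD), -2.92 in MSU_109L (HFD-LFD) and -2.83 in MSU_17R (LFD), while its median over epithelial tumors was -0.30. Among spindle cell tumors the SD ran from 0.20 for Nsdhl to 2.09 for Scd1, which exceeded 98.6% of genes.

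The regimens separate the diet eaten in puberty from the diet eaten as an adult. Among epithelial tumors, comparing the pubertal HFD groups (HFD and HFD-LFD, 15 tumors) with the pubertal LFD groups (LFD and LFD-HFD, 14 tumors), 0 of 36 members passed an adjusted p of 0.10 in limma with Benjamini-Hochberg adjustment over all genes, as was true of 0% of all genes, and 6 members had an unadjusted p under 0.05, against 9.68% of all genes. Of the 6, 3 were higher and 3 lower, against 3.67% and 6.01% of all genes. The SAM statistic named in the study's methods, run here on the epithelial tumors alone, called 127 genes and no member. In all, 20 members had higher and 16 lower means, while 44.1% of all genes had higher means. The median difference was 0.01 over members against -0.04 over all genes.

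The smallest p in this comparison was that of Insig1. In pubertal HFD tumors its ratio had a lowest value of -2.26, a median of -1.34 and a highest of -0.18 (n = 14), and in pubertal LFD tumors -3.50, -2.04 and -0.90 (n = 14). The groups overlapped over much of their range, and the lowest pubertal LFD tumors lay well under any pubertal HFD tumor. The difference was 0.79 (SE 0.25, 95% interval 0.27 to 1.31, limma adjusted p = 0.32). By regimen the mean was -1.05 ± 0.47 (SD, n = 8) for HFD, -1.46 ± 0.64 (n = 6) for HFD-LFD, -1.82 ± 0.64 (n = 8) for LFD and -2.26 ± 0.97 (n = 6) for LFD-HFD. The adjusted p of Insig1 ranged from 0.0712, with another background correction and within-array loess, to 0.667, with slide as a random block, over the alternatives run, and the difference from 0.56 to 0.92.

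The desaturases of polyunsaturated and monounsaturated fatty acids followed Insig1 among members with higher means after pubertal HFD. Scd1, which makes oleic acid from stearic acid, had a difference of 0.78 (SE 0.35, limma adjusted p = 0.476). Its regimen medians were 0.26 in LFD, 0.51 in HFD, 1.64 in HFD-LFD and 0.29 in LFD-HFD, and LFD tumor MSU_13L was far below the rest at -2.84. Fads1, a desaturase on the path to arachidonic acid, had a difference of 0.76 (SE 0.33, adjusted p = 0.468). HFD tumors MSU_42L4B and MSU_60L, the pair scanned apart, carried the highest Fads1 values at 3.27 and 2.34, and without them the difference of Fads1 was 0.42 (adjusted p = 0.524), of Scd1 0.66 (adjusted p = 0.464) and of Insig1 0.81 (adjusted p = 0.232).

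Acss2, Cyp51 and Elovl6 had lower means after pubertal HFD. Acss2 makes acetyl-CoA from acetate, and its ratio had a median of -0.93 in LFD (from -1.39 to 0.26), -1.65 in HFD (-2.89 to -0.61), -1.64 in HFD-LFD (-2.31 to -0.91) and -1.30 in LFD-HFD (-2.30 to -0.19). The difference of Acss2 was -0.64 (SE 0.23, limma adjusted p = 0.364). Cyp51, the lanosterol demethylase, had a lowest value of -1.33, a median of -0.38 and a highest of 1.56 in pubertal HFD tumors and -0.18, 0.38 and 1.15 in pubertal LFD tumors, a difference of -0.55 (SE 0.21, adjusted p = 0.391). Both sizes depended on the signal used, since background correction with loess gave -0.28 for Acss2 and -0.25 for Cyp51. Elovl6, which elongates palmitic acid, differed by -0.40 (SE 0.19, adjusted p = 0.51).

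The remaining genes fixed for every comparison lay near 0 by pubertal diet, with differences of 0.14 for Fasn (adjusted p = 0.854), 0.03 for Sqle, 0.09 for Srebf1, -0.05 for Srebf2 and -0.05 for Scap. The 95% interval for Fasn, the fatty acid synthase, was -0.23 to 0.51. All 9 measured adipocyte genes, such as Adipoq and Plin1, had higher means after pubertal HFD (median difference 0.31, 1 of 9 with p under 0.05, 0 called). The mean level of these genes per tumor had a lowest value of -4.52, a median of -2.75 and a highest of -0.32 after pubertal HFD, and -3.89, -2.82 and -2.04 after pubertal LFD. The part of fat tissue in the member differences was not tested.

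**Figure D2:**
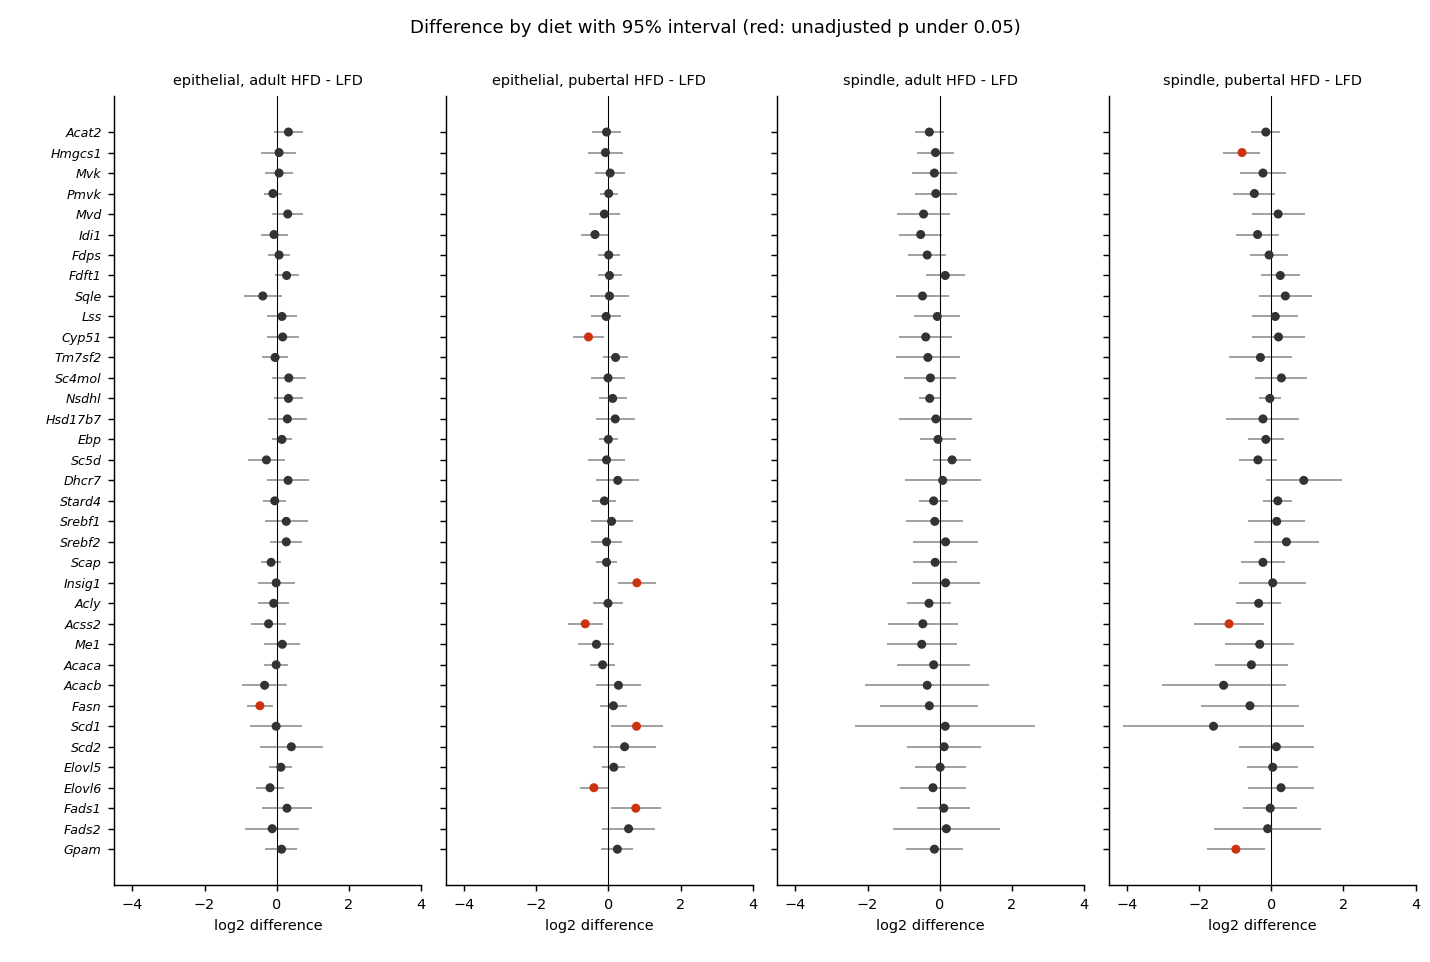
Difference in log2 ratio, HFD minus LFD, for each of the 36 genes by adult diet and by pubertal diet in epithelial (29) and spindle cell (12) tumors; points are limma estimates, lines 95% intervals, and red marks an unadjusted p under 0.05. No estimate passed an adjusted p of 0.10, the lowest p by pubertal diet in epithelial tumors was that of Insig1, and the interval of Scd1 in spindle cell tumors ran from -4.10 to 0.90.

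For the diet eaten as an adult, when the tumors appeared, 14 epithelial tumors on HFD (HFD and LFD-HFD) were set against 15 on LFD (LFD and HFD-LFD). Again 0 of 36 members passed an adjusted p of 0.10 in limma, against 0% of all genes, and 1 member had an unadjusted p under 0.05, against 4.04% of all genes and 1.72% in its direction, lower on HFD. That member was Fasn. Its ratio had a lowest value of -0.11, a median of 0.33 and a highest of 0.91 in LFD, and -0.13, 0.57 and 0.92 in HFD-LFD. In HFD it had -0.78, -0.14 and 1.46, and in LFD-HFD -0.92, 0.00 and 0.07. All LFD-HFD tumors thus lay under the medians of both groups on LFD, while HFD tumor MSU_42L4B was the highest of all. The difference was -0.47 (SE 0.18, 95% interval -0.84 to -0.11, limma adjusted p = 0.964), and it stayed between -0.60 and -0.41 over the alternatives.

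The enzymes of the sterol arm with the smallest p by adult diet had higher means on HFD, by 0.32 for Acat2, which joins acetyl-CoA units, 0.27 for the squalene synthase Fdft1 and 0.32 for the sterol dehydrogenase Nsdhl, each with an adjusted p of 0.964. Sqle differed by -0.39 (SE 0.26, adjusted p = 0.964). The regulators differed by 0.26 for Srebf1, 0.26 for Srebf2, -0.16 for Scap and -0.02 for Insig1, and Scd1 differed by -0.02 (95% interval -0.74 to 0.70). HFD tumors MSU_42L4B and MSU_60L, the pair scanned apart, were at 1.78 and 1.06 for Nsdhl, 0.33 and 1.13 for Acat2 and 2.87 and 1.55 for Srebf2. The medians of the other epithelial tumors were -0.10, -0.26 and 0.77, so these differences carry that pair. In the sterol arm 13 of 19 genes had higher means on adult HFD, and in the fatty acid arm 5 of 13, where 51.8% of all genes had higher means. The 9 adipocyte genes all had lower means on adult HFD (median difference -0.48, 1 with p under 0.05, 0 called), and their mean level had a median of -2.99 on HFD and -2.74 on LFD. How far fat content moved Fasn was not tested.

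Over the 4 regimens, the F-test in limma called 0 of 36 members and 0.473% of all genes, and 5 members had an unadjusted p under 0.05 against 12.8% of all genes. The smallest p was that of Stard4, which carries cholesterol between membranes (adjusted p = 0.219), followed by Insig1 (adjusted p = 0.294) and Acss2 (adjusted p = 0.357). The adjusted p was 0.452 for Fasn, 0.474 for Scd1, 0.771 for Scap, 0.788 for Sqle, 0.824 for Srebf1 and 0.846 for Srebf2. The Stard4 probe used had higher values in the groups whose diet was switched. Its median was -0.05 in HFD-LFD (from -0.60 to 0.16) and -0.13 in LFD-HFD (from -0.41 to 0.19), against a mean of -0.69 ± 0.53 (SD, n = 8) in LFD and -0.86 ± 0.49 (n = 8) in HFD, where it reached -1.94. The highest HFD value of Stard4 was -0.45 and the lowest LFD-HFD value -0.41, and how many genes separate these groups was not counted. The other, dimmer probe of Stard4 did not follow this one (r = 0.088 over 41 tumors), and the mean over both gave a difference of 0.11 for HFD-LFD minus HFD, 0.41 for LFD-HFD minus HFD, -0.29 for HFD-LFD minus LFD and 0.01 for LFD-HFD minus LFD, against 0.68, 0.73, 0.51 and 0.56 with the brighter probe. The differences of Stard4 by regimen thus rest on the choice of probe.

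The 6 pairs of regimens share groups with each other, so their values are given side by side and not as separate evidence. Called genes made up 0% of all genes for HFD minus LFD, 1.40% for HFD-LFD minus LFD, 0% for LFD-HFD minus LFD, 0.0287% for HFD-LFD minus HFD, 0.230% for LFD-HFD minus HFD and 0% for LFD-HFD minus HFD-LFD, and 0 members were called in any pair. Members with an unadjusted p under 0.05 in limma numbered 4, 6, 1, 3, 3 and 3 in these pairs, against 9.44, 13.5, 6.54, 13.4, 10.4 and 5.05% of all genes.

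Lifelong HFD against lifelong LFD gave -0.87 for Acss2 (limma adjusted p = 0.427), 0.78 for Insig1 (adjusted p = 0.467), 1.04 for Fads1 (adjusted p = 0.468) and -0.59 for Elovl6 (adjusted p = 0.486). Without MSU_42L4B and MSU_60L the difference of Fads1 was 0.37 (adjusted p = 0.777), and with background correction and loess that of Acss2 was -0.38. Puberty-restricted HFD (HFD-LFD) against LFD gave -0.82 for Cyp51 (adjusted p = 0.209), 1.24 for Scd1 (adjusted p = 0.247), -0.83 for Acss2 (adjusted p = 0.25), 0.51 for Stard4 (adjusted p = 0.306) and -0.60 for the lanosterol synthase Lss (adjusted p = 0.343). Background correction with loess gave -0.46 for Cyp51 and -0.45 for Acss2 in this pair. Adult-restricted HFD (LFD-HFD) against LFD gave 0.56 for Stard4 (adjusted p = 0.688) and -0.48 for Fasn (adjusted p = 0.817).

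Against lifelong HFD, HFD-LFD tumors gave 0.68 for Stard4 (limma adjusted p = 0.214), -0.75 for Nsdhl (adjusted p = 0.248) and -0.68 for Lss (adjusted p = 0.297). Without MSU_42L4B and MSU_60L, Nsdhl gave -0.43 and Lss -0.30. LFD-HFD tumors gave -1.22 for Insig1 (adjusted p = 0.231), 0.73 for Stard4 (adjusted p = 0.251) and 0.75 for Elovl6 (adjusted p = 0.33). The switched groups against each other, LFD-HFD minus HFD-LFD, gave -0.62 for Fasn, 0.71 for Cyp51 and -0.81 for Insig1, all with an adjusted p of 0.968. In HFD-LFD minus LFD the adipocyte gene Lipe was called (1.01, adjusted p = 0.0995), and all 9 adipocyte genes had higher means in HFD-LFD. Srebf1, Srebf2, Scap and Sqle had an unadjusted p of at least 0.165 in every pair.

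**Figure D3:**
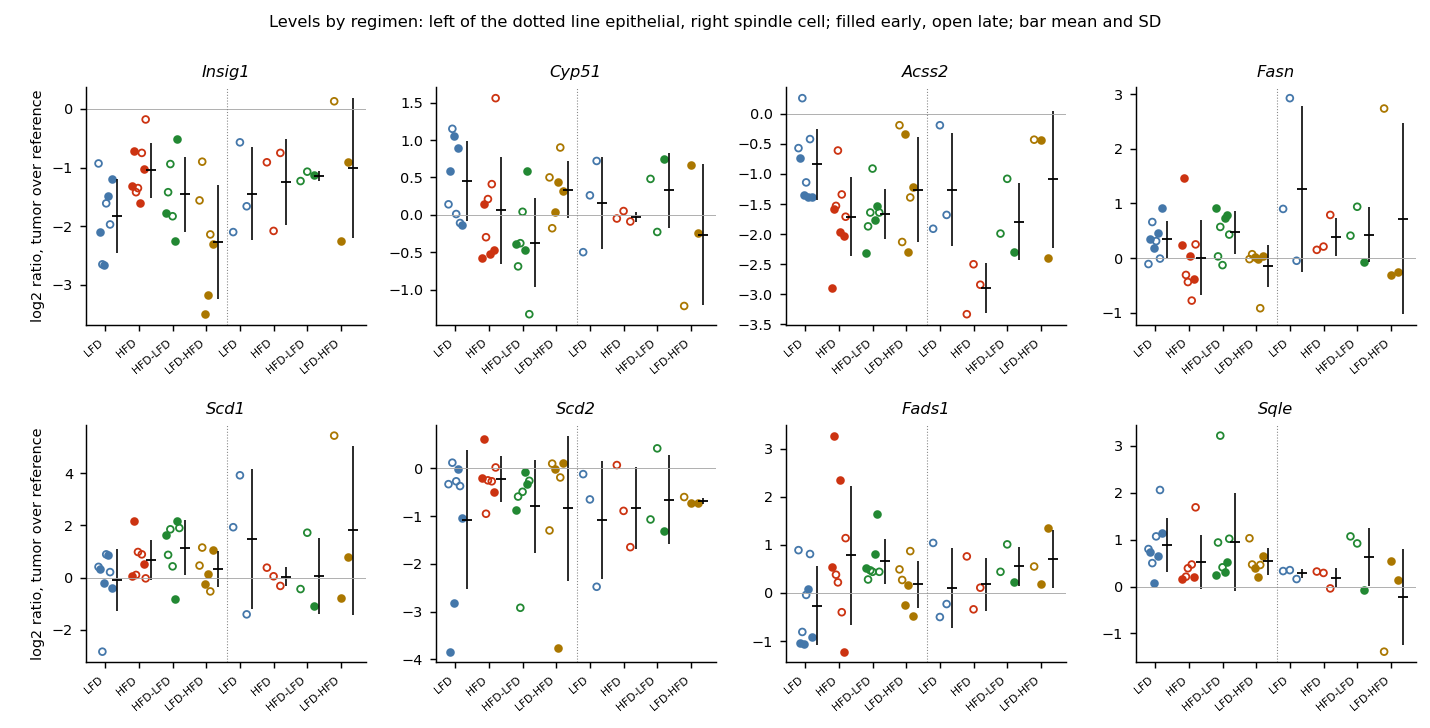
Log2 ratio of tumor over reference for Insig1, Cyp51, Acss2, Fasn, Scd1, Scd2, Fads1 and Sqle by regimen, epithelial tumors left and spindle cell tumors right of the dotted line; points are tumors (filled early, open late) and bars the mean and SD. Insig1 means run from -1.05 in HFD to -2.26 in LFD-HFD epithelial tumors with overlapping points, and single tumors stand apart for Sqle (MSU_109L, 3.22) and Scd2.

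Spindle cell tumors had 3 tumors per regimen. In limma 0 of 36 members passed an adjusted p of 0.10 over the 4 regimens, by adult diet or by pubertal diet, against 0% of all genes each time. At an unadjusted p under 0.05 there was 1 member over the regimens (Hmgcs1, adjusted p = 0.978, against 3.76% of all genes), 0 by adult diet (against 2.38%) and 3 by pubertal diet, all lower after HFD (against 8.32%, and 3.70% in that direction).

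Hmgcs1 in spindle cell tumors was -1.92, -1.95 and -2.17 in HFD and -1.95, -1.38 and -1.79 in HFD-LFD, against -1.72, -0.76 and -0.78 in LFD and -0.69, -1.49 and -0.84 in LFD-HFD. The pubertal groups overlapped through HFD-LFD tumor MSU_M118R, LFD tumor MSU_M18L and LFD-HFD tumor MSU_M86R. The difference of Hmgcs1 was -0.81 (SE 0.23, 95% interval -1.33 to -0.30, limma adjusted p = 0.559). Acss2 was -3.33, -2.50 and -2.84 in HFD and -2.30, -1.99 and -1.08 in HFD-LFD, against -1.91, -0.19 and -1.68 in LFD and -0.44, -2.40 and -0.43 in LFD-HFD, a difference of -1.17 (SE 0.44, adjusted p = 0.57). Gpam, the acyltransferase that starts triglyceride synthesis, was -1.43, -1.87 and -2.04 in HFD and -1.99, -1.46 and -1.01 in HFD-LFD, against -0.50, -0.12 and -1.35 in LFD and -1.28, -1.23 and 0.54 in LFD-HFD, a difference of -0.98 (SE 0.36, adjusted p = 0.568).

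Spindle cell tumors MSU_M32L (LFD) and MSU_M76R (LFD-HFD), both on LFD in puberty, stood apart in fat genes. All 9 adipocyte genes were higher in each of them than in the other 10 spindle cell tumors, with Adipoq at 1.20 and 3.16 against -5.63 to -3.40 and Plin1 at 0.82 and 2.73 against -6.43 to -4.86. Of the 36 members, 10 (27.8%) were also higher in both than in all other spindle cell tumors, against 8.65% of all genes. They were Pmvk, Insig1, Acly, Acss2, Me1, Acaca, Acacb, Fasn, Scd1 and Gpam, so 8 of the 13 genes of fatty acid synthesis were among them. Scd1 reached 3.92 and 5.44 against -1.41 to 1.93, Fasn 2.93 and 2.74 against -0.32 to 0.94, and Acacb 0.71 and 0.08 against -4.10 to -2.53. Srebf2 lay below the others in both, at -0.33 and 0.09 against 0.86 to 1.98.

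Without MSU_M32L and MSU_M76R the pubertal difference was -0.69 for Hmgcs1 (limma adjusted p = 0.877), -0.73 for Acss2 (adjusted p = 0.897) and -0.54 for Gpam (adjusted p = 0.888). The difference of Scd1 went from -1.60 (SE 1.13, adjusted p = 0.683) to -0.08 and that of Fasn from -0.59 (SE 0.62) to 0.34. Among the regulators and Sqle the pubertal differences with all tumors were 0.39 for Sqle, 0.15 for Srebf1, 0.42 for Srebf2, -0.23 for Scap and 0.04 for Insig1, and Dhcr7, which makes cholesterol in the last step, gave 0.90 (adjusted p = 0.618). MSU_M32L and MSU_M76R lay above all other spindle cell tumors for Insig1 (-0.57 and 0.13 against -2.25 to -0.75). They lay below them for Srebf2 and for Dhcr7 (-0.50 and -0.82 against 0.06 to 2.21). The differences of Insig1, Srebf2 and Dhcr7 thus carry that pair. The 9 adipocyte genes all had lower means after pubertal HFD (median difference -2.94, 1 with p under 0.05), and their mean level ran from -4.55 to -3.64 after pubertal HFD and from -4.34 to 3.08 after pubertal LFD.

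By adult diet in spindle cell tumors, 26 of 36 members had lower means on HFD and 10 higher, while 46.8% of all genes had higher means. The lower members included all 7 enzymes from acetyl-CoA to farnesyl diphosphate. The median was -0.15 over members and -0.02 over all genes. The smallest p values were those of Nsdhl (-0.28), the isoprenoid isomerase Idi1 (-0.53) and Acat2 (-0.29) among lower means and of Sc5d (0.34) among higher ones, and the limma adjusted p of every member was 1. Sqle gave -0.48, Fdft1 0.15, Srebf1 -0.14, Srebf2 0.16, Scap -0.13, Insig1 0.16, Fasn -0.29 and Scd1 0.15 (95% interval -2.35 to 2.65). No difference exceeded the spread between tumors by this test. All 7 milk genes of the secretory epithelium list also had lower means on adult HFD (median -1.81, 2 with p under 0.05), and their mean level ran from -1.66 to 4.91 on HFD and from 1.86 to 5.51 on LFD.

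Whether diet acted differently in the histologies was tested as an interaction, the spindle cell effect minus the epithelial effect. By pubertal diet 0 of 36 members were called against 0.344% of all genes, and 3 had an unadjusted p under 0.05, all lower, against 12.2% of all genes and 5.02% in that direction. These were Gpam (-1.22, SE 0.41, limma adjusted p = 0.243), Scd1 (-2.38, SE 0.93, adjusted p = 0.291) and Acacb (-1.59, SE 0.71, adjusted p = 0.346). Without MSU_M32L and MSU_M76R they were -0.79, -0.87 and -0.41. In the other direction the smallest p was that of Cyp51 (0.76, adjusted p = 0.449), then Elovl6 (0.67) and Dhcr7 (0.64). Insig1 gave -0.76 (adjusted p = 0.538), Fasn -0.73, Sqle 0.36, Srebf1 0.06, Srebf2 0.46 and Scap -0.18. MSU_M32L and MSU_M76R lay above all other spindle cell tumors for Insig1 and Fasn and below them for Srebf2. The interactions of Insig1, Fasn and Srebf2 thus carry that pair. All 9 adipocyte genes had a lower interaction with p under 0.05, and 0 were called.

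By adult diet the interaction called 0 members against 0.00478% of all genes, and 0 had an unadjusted p under 0.05 against 1.97%. It was lower in 29 of 36 members and higher in 7, while it was higher in 46.4% of all genes. The lower members included all 7 enzymes from acetyl-CoA to farnesyl diphosphate and 10 of the 11 from squalene to cholesterol. The median was -0.20 over members against -0.03 over all genes. Acat2 gave -0.61 (SE 0.32), the mevalonate diphosphate decarboxylase Mvd -0.75 (SE 0.39) and Nsdhl -0.60 (SE 0.32), all with a limma adjusted p of 1. Sc5d, at 0.64, was the 1 sterol enzyme with the opposite sign, and Fads2 gave 0.31. Sqle gave -0.09, Srebf1 -0.40, Srebf2 -0.10, Scap 0.03, Insig1 0.18, Fasn 0.18 and Scd1 0.17.

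Early and late tumors were compared within each histology. In epithelial tumors 0 of 36 members passed an adjusted p of 0.10 in limma, against 0.220% of all genes (0.129% higher and 0.0909% lower), and 6 had an unadjusted p under 0.05, against 13.2% of all genes. In early tumors 1 of the 6 was higher and 5 were lower, against 7.24% and 5.98% of all genes. The SAM statistic called 2 of 36 members, Acacb and Mvk, and 1039 of all 20913 genes. Acacb had a lowest value of -3.69, a median of -2.97 and a highest of -0.90 in early tumors (n = 13), and -3.11, -2.26 and -0.49 in late tumors (n = 15). The ranges overlapped, with early tumors lower on average by 0.77 (early minus late -0.77, SE 0.27, limma adjusted p = 0.235). Without early tumor MSU_117R the limma adjusted p of Acacb was 0.089. Mvk, the mevalonate kinase, had a median of -1.31 in early (from -2.04 to -0.42) and -0.81 in late tumors (from -1.74 to 0.41), a difference of -0.45 (SE 0.17, adjusted p = 0.266).

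Stard4 differed by -0.43 (SE 0.17, limma adjusted p = 0.292), Sqle by -0.54 (SE 0.24, adjusted p = 0.334) and Acss2 by -0.50 (adjusted p = 0.371). The Stard4 value is that of its brighter probe, which the dimmer one did not follow (r = 0.088 over 41 tumors). Fasn was the member with a higher mean in early tumors at this level. Its values had a lowest of -0.38, a median of 0.29 and a highest of 1.46 in early tumors and -0.92, -0.01 and 0.66 in late tumors, a difference of 0.43 (SE 0.18, adjusted p = 0.296). The regulators gave 0.53 for Srebf1 (adjusted p = 0.389), 0.39 for Srebf2 (adjusted p = 0.399), 0.09 for Scap and -0.43 for Insig1 (adjusted p = 0.519), while Mvd gave 0.40 (adjusted p = 0.388) and Scd1 0.10. Both MSU_42L4B and MSU_60L, the pair scanned apart, were early, at 1.46 and 0.04 for Fasn, 2.53 and 1.98 for Srebf1 and 2.87 and 1.55 for Srebf2. The medians of the other epithelial tumors were 0.07, 1.35 and 0.77. The adipocyte genes had lower means in early tumors in 8 of 9 cases (median -0.20, 0 called).

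Early and late epithelial tumors shared a slide on only 3 slides, which carried 12 tumors. The slide of MSU_56R, MSU_62L, MSU_80L and MSU_92R held late HFD and early LFD-HFD tumors, so onset and regimen cannot be told apart on it. Another held MSU_40R4A, MSU_57R and MSU_65R, whose columns in the authors' matrix matched one another's scanner values. With slide as a fixed block, which compares tumors within these 3 slides, the early minus late difference was -0.80 for Mvk (limma adjusted p = 0.455) and -1.26 for Insig1 (adjusted p = 0.455). It was -0.60 for Acacb (adjusted p = 0.762), 0.29 for Fasn (adjusted p = 0.79) and -0.37 for Sqle. Stard4 and Scd1 changed sign, to 0.26 and -0.16.

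In spindle cell tumors 0 of 36 members were called by onset in limma, against 0% of all genes, and 0 had an unadjusted p under 0.05, against 2.04%. SAM called 1 gene and no member. Fasn was -0.07, -0.32 and -0.26 in the 3 early tumors, and ran from -0.05 to 2.93 with a median of 0.79 in the 9 late ones (difference -1.22, SE 0.60, adjusted p = 1). The highest early and lowest late values thus nearly met, and how many genes separate early from late tumors was not counted. Scd1 differed by -1.62 (SE 1.22), Srebf1 by -0.57, Insig1 by -0.29, Scap by -0.08 and Sqle by -0.01. Cyp51 differed by 0.45, Sc5d by 0.38, Fdft1 by 0.37 and Srebf2 by 0.31. Both MSU_M32L and MSU_M76R were late tumors, and all 9 adipocyte genes had lower means in early tumors (median -1.20).

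The interaction of onset with histology called 0 members against 0.00478% of all genes, and 2 members had an unadjusted p under 0.05, both lower, against 3.03% of all genes and 1.65% in that direction. Fasn gave -1.65 (SE 0.49, 95% interval -2.64 to -0.67, limma adjusted p = 1), with an early minus late difference of 0.43 in epithelial and -1.22 in spindle cell tumors, and -1.13 without MSU_M32L and MSU_M76R. Srebf1 gave -1.09 (SE 0.52), Scd1 -1.72, Mvk 0.64, Sqle 0.52, Stard4 0.37, Insig1 0.14, Srebf2 -0.08 and Scap -0.17.

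The comparison of spindle cell with epithelial tumors was the 1 comparison with called members. At an adjusted p of 0.05 in limma, 3 of 36 members were called, with Mvd and Gpam higher and Stard4 lower in spindle cell tumors, against 20.2% of all genes (7.91% higher and 12.3% lower). A share of 3 in 36 is below that background. The SAM statistic called 4 of 36 members, the same 3 and Sqle, and 5598 of all 20913 genes. At an unadjusted p under 0.05 there were 10 members, against 33.4% of all genes. Of these 3 were higher and 7 lower, against 12.9% and 20.5% of all genes, and the median over members was 0.00 against -0.07 over all genes.

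Mvd, which makes isopentenyl diphosphate, had a lowest value of -1.64, a median of -0.63 and a highest of 0.89 in epithelial tumors and -1.33, -0.04 and 1.07 in spindle cell tumors. The ranges overlapped, and Mvd rose by 0.58 (SE 0.20, 95% interval 0.18 to 0.97, limma adjusted p = 0.0325). Gpam had -2.59, -1.81 and 0.14 in epithelial and -2.04, -1.31 and 0.54 in spindle cell tumors, and rose by 0.61 (SE 0.22, interval 0.17 to 1.05, adjusted p = 0.0415). Gpam was one of the genes raised in MSU_M32L and MSU_M76R, and without these tumors its difference was 0.34 (adjusted p = 0.229), so the call rested on them. Its call was also lost when any of 13 single tumors was left out, with adjusted p from 0.011 to 0.11 over the 41 such fits. Mvd without MSU_M32L and MSU_M76R was 0.74, and its call was lost without MSU_M118R, MSU_M128L, MSU_M18L or MSU_M84R in turn.

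Stard4 had a lowest value of -1.94, a median of -0.45 and a highest of 0.21 in epithelial tumors and -1.47, -0.99 and -0.61 in spindle cell tumors. Stard4 fell by 0.52 (SE 0.16, interval -0.84 to -0.21, limma adjusted p = 0.015). All 12 spindle cell tumors lay under the epithelial median, and how many genes show this was not counted. The call was kept in all 41 fits without 1 tumor and with slide as a random block, where Mvd (adjusted p = 0.0844) and Gpam (0.104) were lost. With the mean over both probes the difference of Stard4 was -0.16 (adjusted p = 0.573).

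Among members fixed for every comparison but not called, Sqle differed by -0.52 (limma adjusted p = 0.0935), Fasn by 0.51 (0.129), Insig1 by 0.41 (0.27), Srebf2 by 0.27 (0.362), Scap by -0.20 (0.275), Srebf1 by 0.14 (0.733) and Scd1 by 0.35 (0.64). Fasn, Insig1 and Scd1 were raised in both MSU_M32L and MSU_M76R, so their differences carry that pair. Medians of the other spindle cell tumors were 0.18, -1.17 and -0.14. Those of epithelial tumors other than MSU_42L4B and MSU_60L were 0.07, -1.52 and 0.43. Without MSU_M32L and MSU_M76R, 5 members were called, namely Acacb (-0.77), Mvd (0.74), Pmvk (-0.39), Srebf2 (0.53) and Stard4 (-0.49). Over the alternatives run, 2357 to 7909 of all genes were called, against 4224 in the main fit. The change in the member count is therefore not read as particular to members. Among late tumors alone Fasn was called (1.03) and Gpam was not (adjusted p = 0.0986). Both MSU_M32L and MSU_M76R were late, and without them Fasn in late tumors differed by 0.51 (adjusted p = 0.0805), so that call rested on them.

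Of 30 genes next to the pathway, such as lipid transporters, other elongases and nuclear receptors, 29 were tested and 12 called in spindle against epithelial tumors, where 20.2% of all genes were called. Of these 4 were higher and 8 lower in spindle cell tumors, against 7.91% and 12.3% of all genes. The largest differences among called genes were those of Elovl7, a fatty acid elongase (-1.64, limma adjusted p = 3.6e-05), Scd3, a stearoyl-CoA desaturase (-0.86, adjusted p = 0.00279), and Mlxipl, a carbohydrate-responsive factor that drives lipogenic genes (-0.80, adjusted p = 4.0e-06). The highest Mlxipl value of a spindle cell tumor was 0.83, against an epithelial median of 1.47, and how many genes show this was not counted. In the diet and onset comparisons 0 related genes were called. Of the marker lists, read against the same 20.2%, 2 of 7 milk genes fell (Csn3 by 1.48 and Elf5 by 1.63) and 2 of 6 mesenchymal genes rose (Vim by 1.19 and Zeb1 by 0.87), while Epcam, Krt8 and Krt18 were not called. The mean level of the milk genes spanned 1.91 to 6.11 among epithelial tumors and -1.66 to 5.51 among spindle cell tumors, and that of the mesenchymal genes -1.80 to 0.31 and -1.92 to 0.99, so the histologies overlapped on both lists. The part of cell makeup in the member differences was not tested.

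**Figure D4:**
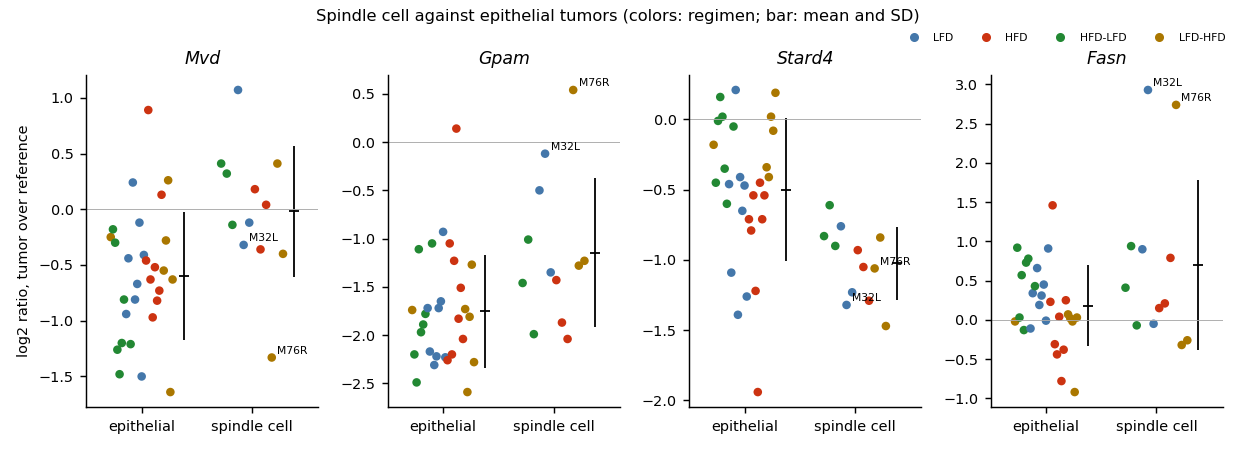
Log2 ratio of tumor over reference for Mvd, Gpam, Stard4 and Fasn in 29 epithelial and 12 spindle cell tumors; points are tumors colored by regimen, and bars the mean and SD. Stard4 in spindle cell tumors lies between -1.47 and -0.61, MSU_M32L and MSU_M76R are the 2 highest spindle cell tumors for Gpam and Fasn, and the groups overlap for all 4 genes.

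Adipocyte transcripts also varied among epithelial tumors. Adipoq, the adipocyte hormone adiponectin, ran from -5.22 to -0.39 with a median of -3.41 over 28 epithelial tumors, and each member was correlated with it over those tumors, with permutation tests of 100000 resamples and Benjamini-Hochberg adjustment over the 36 relations. The relation with Adipoq passed 0.10 for Acaca, the cytosolic acetyl-CoA carboxylase (Pearson r = 0.61, permutation p = 8.4e-04, adjusted p = 0.0302; Spearman rho = 0.56, p = 0.00229, adjusted p = 0.0824). Within slides r was 0.71 (adjusted p = 0.00144). Without MSU_109L and MSU_117R, the tumors farthest from the Adipoq median, r was 0.47 (adjusted p = 0.135 by permutation), so the call rested on those tumors. For Scd1 r was 0.37 (adjusted p = 0.608), for Srebf2 -0.41 (0.608), for Acacb 0.17 and for Fasn 0.09. The median r with Adipoq was 0.05 over members, of which 21 were above 0, and -0.01 over all genes, of which 48.5% were above 0.

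**Figure D5:**
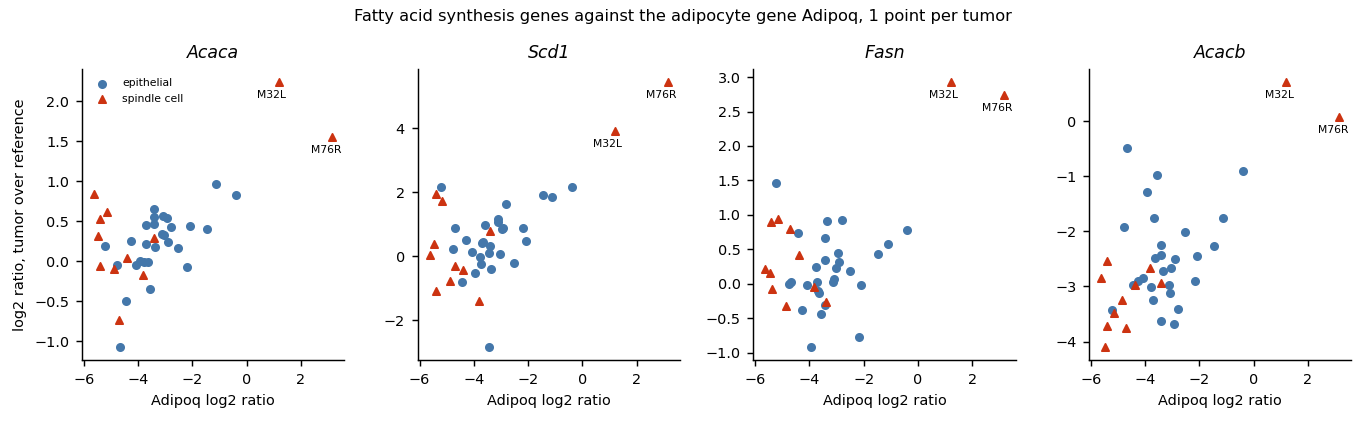
Log2 ratio of Acaca, Scd1, Fasn and Acacb (y axes) against that of Adipoq (x axes), both tumor over reference, 1 point per tumor, circles epithelial and triangles spindle cell. MSU_M32L and MSU_M76R lie at the upper right of all 4 panels, and among epithelial tumors Acaca (r = 0.61) follows Adipoq more closely than Fasn (r = 0.09) does.

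Members were also compared with each other over the 29 epithelial tumors, as a description. The pairs share libraries, so their r carry no p. The median r over pairs was 0.24 for the 18 sterol enzymes (quartiles 0.04 and 0.42, with 76.5% of pairs above 0), 0.08 for the 13 fatty acid genes and -0.04 for the 4 regulators. Over all 12395 genes without a missing value it was 0.01. Within slides the medians were 0.29, 0.01 and -0.06. The closest pairs were the neighboring desaturases Fads1 and Fads2 (r = 0.86), Lss with Nsdhl (0.78), Hmgcs1 with Hsd17b7 (0.77), Nsdhl with Hsd17b7 (0.76) and Mvd with the farnesyl diphosphate synthase Fdps (0.73).

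Tumors MSU_42L4B and MSU_60L shaped some of these pairs. They were high in Fads1, in Fads2 (2.15 and 2.28), in Dhcr7 (2.61 and 1.79), in Nsdhl (1.78 and 1.06) and in Srebf2 (2.87 and 1.55). Without them Fads1 with Fads2 was 0.81, Hmgcs1 with Hsd17b7 was 0.82, Nsdhl with Hsd17b7 0.75 and Mvd with Fdps 0.75. Lss with Nsdhl went from 0.78 to 0.57, and Lss with Srebf2 from 0.65 to 0.31. At the other end Me1 and Acacb had r = -0.58. Among the 12 spindle cell tumors the median r of the fatty acid genes was 0.49, or 0.32 without MSU_M32L and MSU_M76R, and that of the sterol enzymes 0.17.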

How the data were processed

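Expression was measured on 41 two-channel Agilent whole mouse genome arrays, 1 per tumor. The deposited files give spot intensity as Agilent Feature Extraction (8.5.1.1 per the labels) left it, that is, background-subtracted, detrended and dye-normalized processed signals, besides mean and background signals and a log10 ratio. A matrix of log2 values, Lowess-normalized by the authors, was used only as an alternative. There, the columns of HFD tumors MSU_40R4A, MSU_57R and MSU_65R matched one another's scanner values, and the scanner files' labels were kept.

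The main measure was log2 of red over green processed signal. Outlier spots (1.196% of values) were left missing and repeat spots averaged. A probe was kept where its processed signals exceeded 10 on 80% or more of arrays in each channel (27307 of 39429), and each gene took its brightest probe. Groups were compared with limma 3.58.1 in R 4.3.3 (lmFit, eBayes) with Benjamini-Hochberg adjustment over all genes tested, at 0.10 for diet and onset and 0.05 for histology, as in the study's methods. Adult and pubertal diet were contrasts of the 4 regimen means within a histology. The methods' SAM statistic was run with 100 permutations on values imputed from 10 neighbours. Correlations and figures used Python 3.11.15, numpy 2.4.6, scipy 1.17.1, pandas 2.3.3 and matplotlib 3.10.9. The scripts were tested on simulated data. Precision is limited by the number of arrays.

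The members and lists were chosen with earlier results of these data known. Described in full are called members or, with none called, up to 3 in each direction with the smallest p, and Srebf1, Srebf2, Scap, Insig1, Sqle, Fasn and Scd1 in every comparison; other members named beside them were chosen after their values were seen. Related and marker genes are given by count with up to 3 called genes a list. Besides adipocyte, milk, epithelial and mesenchymal genes, lists of squamous, skeletal muscle, macrophage, T cell and cell division genes were counted; between histologies, 0 of 5, 1 of 5, 0 of 4, 1 of 4 and 1 of 4 of these were called. Alternatives covered the background correction (normexp, offset of 50, with loess), centring, filter, probes, outlier spots, the matrix, labels, slide, covariates, threshold and leaving out tumors. Leaving out MSU_M32L and MSU_M76R (also among late tumors alone) or MSU_42L4B and MSU_60L, and a spread for each histology, were chosen after seeing the data.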

Additional observations from a re-analysis of the deposited data

Results flagged for a closer look

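Among 144 sets of values, each of 1 member in 1 epithelial regimen, 17 held a tumor whose gap to its neighbor was large for the range of its group by Dixon's criterion, where chance gives about 1 in 20. They came from 10 tumors.

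LFD tumor MSU_13L had 4 of them. It was low in Scd1 at -2.84 (nearest value -0.39), in Srebf1 at -0.76 (0.94) and in Acat2 at -0.79 (-0.33), and high in Me1 at 2.54 (1.59). HFD tumor MSU_66L had 3, all sterol enzymes and all high, with Sqle at 1.69 (nearest 0.47), Cyp51 at 1.56 (0.41) and Sc4mol, the methylsterol monooxygenase, at 1.25 (-0.09). LFD-HFD tumor MSU_90R was low in Sc4mol at -1.34 (-0.28) and in Fasn at -0.92 (-0.02). HFD-LFD tumor MSU_109L was high in Sqle at 3.22 (1.02), the largest Sqle value of any tumor, and low in Scd2 at -2.92 (-0.87).

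The other 6 tumors had 1 each. HFD tumor MSU_57R was high in Acacb at -0.98 (nearest -2.43) and HFD tumor MSU_42L4B in Fasn at 1.46 (0.25). HFD-LFD tumor MSU_108R was low in Me1 at -0.80 (0.81), and HFD-LFD tumor MSU_117R was high in Fads1 at 1.65 (0.81). LFD tumor MSU_27L4A was low in Fdft1 at -1.81 (-0.95), and LFD-HFD tumor MSU_82L in Scd2 at -3.76 (-1.30).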

How the results depend on the processing

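Members called by limma were recounted under each alternative. Counts over all genes moved as well, with their ranges given below, so a change in a member count is not read as particular to members. For spindle cell against epithelial tumors the count of 3 became 6 at a threshold of 0.10, 6 without MSU_42L4B, MSU_60L and MSU_M86R, 5 without MSU_M32L and MSU_M76R, 8 among late tumors without these, and 1 where slide entered as a random block. Leaving out single tumors gave 1 to 4 (1 without MSU_M18L or MSU_M84R). Gpam was also lost with normexp and loess (adjusted p = 0.127) and in the authors' matrix (0.0733), and Mvd without MSU_40R4A, MSU_57R and MSU_65R (0.0502). Over the pairs of regimens the count of 0 became 1 with normexp and loess (Insig1, LFD-HFD minus HFD, -1.08), 1 in the matrix (Stard4, HFD-LFD minus LFD, 0.63) and 2 without MSU_40R4A, MSU_57R and MSU_65R (Lss -1.13 and Nsdhl -1.15, HFD-LFD minus HFD). By pubertal diet in epithelial tumors it became 1 with normexp and loess (Insig1, 0.75). For pubertal diet by histology it became 3 with normexp and loess (Acacb -1.94, Gpam -1.36 and Insig1 -1.09), 1 in the matrix (Gpam, -1.39) and 1 without MSU_42L4B, MSU_60L and MSU_M86R (Gpam, -1.19). Acacb, Gpam and Insig1 were among the members raised in both MSU_M32L and MSU_M76R. By onset in epithelial tumors the count of 0 became 2 with SAM, and single tumors left out gave 0 to 1 (1 without MSU_117R). Of relations with Adipoq, 1 was called, 2 within slides, and 2 without the tumors farthest from its median (Ebp and Fads2, not Acaca). The cause was not tested. The other comparisons stayed at 0 members under every alternative run, single tumors left out included, and no named result called in the main fit changed sign. Over all genes, the counts called ranged over the alternatives from 2357 to 7909 between histologies (4224 in the report), from 1 to 2221 for pubertal diet by histology (72), from 0 to 1039 for epithelial onset (46), from 0 to 184 for epithelial pubertal diet (0), from 0 to 219 for the epithelial regimens (99) and from 6 to 831 summed over the pairs (346). No paired analysis was possible because no groups compared share more than 1 number in the tumor titles, and the replicate numbers follow accession order. The spread between tumors, at 3 per regimen in spindle cell tumors, limits what could be detected there, as the 95% intervals show.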
